A study of Rattus norvegicus with 25 samples.

Results

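The let-7 family of miRNAs, together with its close relative miR-98, was followed in rat sperm across morphine self-administration and extended abstinence. The members were all rows of the deposited miRNA count matrix whose names begin with rno-let-7 or rno-miR-98-, on either arm of the hairpin. They numbered 21 of 562 miRNAs in the matrix, 9 of them 5p arms and 12 of them 3p arms. All 9 5p arms and 5 of the 3p arms passed a filter on low counts, giving 14 members among 317 miRNAs tested, and 7 3p arms did not.

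Small RNA (smRNA) was sequenced from mature sperm of 25 F0 Sprague–Dawley males that had lever-pressed for intravenous morphine or for saline. The groups were F0_SAL (saline, collected at the end of self-administration, n = 7), F0_MOR (morphine, the same collection time, n = 7), F0_ABS-SAL (saline, 90 days later, n = 5) and F0_ABS-MOR (morphine, 90 days later, n = 6). All animals were catheterized, and the saline males are the controls for morphine at each collection time. The later males were also older, and no batch or sequencing date was given, so abstinence, age and any batch cannot be told apart in the timepoint comparisons. The sperm came from the cauda epididymis and was enriched by swim-up. The paper names alternative culture media for the release of sperm, without saying which males had which.

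miRNAs are short RNAs that guide Argonaute proteins to messenger RNAs, chiefly through the seed at bases 2 to 8 of the mature strand. let-7 miRNAs accumulate as cells differentiate, their maturation is blocked by the RNA-binding protein LIN28, and their targets include growth and cell cycle regulators. Members of the family are known from mature sperm and from the vesicles that the epididymis passes to maturing sperm. The 5p arm is the strand that is usually kept, whereas the 3p arm is usually discarded.

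The mature 5p sequences are shown because members that differ by a single base carried different values. They were taken from RefSeq (GRCr8), with the seed in capitals, and stand in order of mean level in these libraries.
rno-let-7g-5p: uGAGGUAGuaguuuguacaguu
rno-let-7f-5p: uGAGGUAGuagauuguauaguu
rno-let-7i-5p: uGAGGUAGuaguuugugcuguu
rno-let-7a-5p: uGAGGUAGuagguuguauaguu
rno-let-7c-5p: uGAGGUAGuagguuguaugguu
rno-let-7b-5p: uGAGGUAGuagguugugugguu
rno-let-7d-5p: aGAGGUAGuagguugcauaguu
rno-let-7e-5p: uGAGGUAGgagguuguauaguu
rno-miR-98-5p: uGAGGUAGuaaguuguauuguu

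All 9 were 22 bases long and shared 1 seed, and no pair among the 36 differed within it. Counted from 1 at the 5′ end, the same base stood at 14 positions in every member, and the 8 varying positions were 1, 9, 11, 12, 16, 17, 18 and 19. Relative to let-7a-5p, let-7f-5p carried G12A, let-7c-5p carried A19G and let-7e-5p carried U9G, each as its only difference. let-7b-5p carried A17G and A19G, let-7g-5p carried G12U and U18C, and miR-98-5p carried G11A and A19U. A difference of 1 base was found in 4 of the 36 pairs, and the most distant pair, let-7i-5p and let-7d-5p, differed at 6 positions. The authors counted reads aligned with up to a single mismatch, so reads of members 1 base apart may have been split or shared, and the values of let-7a-5p, let-7b-5p, let-7c-5p, let-7e-5p and let-7f-5p are uncertain to that extent. Outside the family, 0 miRNAs of the matrix with a RefSeq sequence had the same bases 2 to 8. miR-202-3p shared bases 2 to 7 and reached at most 1.52 CPM, counts scaled to library depth, in any library.

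In the RefSeq annotation (GRCr8), 12 hairpin genes give rise to the members, several of them as neighbours within 10 kb. Mirlet7a1, a let-7f hairpin listed as Mirlet7f-1os, and Mirlet7d lie together on chromosome 17, Mirlet7c2 with Mirlet7b on chromosome 7, and Mirlet7f2 with Mir98 within the span of Huwe1 on chromosome X. Mirlet7e neighbours Mir99b and Mir125a on chromosome 1, Mirlet7c1 neighbours Mir99a on chromosome 11, and Mirlet7a-2 neighbours Mir100 on chromosome 8. Mirlet7i on chromosome 7 and Mirlet7g on chromosome 8 had no miRNA gene within that distance, and Mirlet7g overlaps Wdr82 and Rpl29. Mir3596 genes are annotated at 3 of these places, and 0 rows of the matrix carry that name. Because let-7a, let-7c and let-7f are each encoded by more than 1 hairpin with the same mature 5p strand, their counts cannot be assigned to a locus.

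The miRNA reads of a library numbered 1032386 to 3203211, with a median of 1806290. Values are CPM scaled by edgeR's TMM factors, which ranged from 0.701 to 1.26, and the reads carry no molecular identifiers. The most abundant miRNA, miR-34c-5p, an abundant male germ cell miRNA, held between 19.6% and 53.6% of all miRNA counts, so shares of the total move with it. In nonabstinent males its share was 43.3% ± 6.86 (SD) with saline and 39.0% ± 4.36 with morphine, and in abstinent males 33.8% ± 6.13 and 34.2% ± 9.79. All 8 male germ cell miRNAs checked were detected in each group, with a summed level of 177869 to 730550 CPM over the libraries.

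Together the 9 5p arms made up 3.62% to 9.40% of the miRNA counts of a library. The mean share of F0_SAL was 6.24% ± 1.80 (SD, n = 7) and that of F0_MOR 7.38% ± 1.15 (SD, n = 7). After abstinence it was 6.91% ± 1.53 (SD, n = 5) with saline and 6.87% ± 1.79 (SD, n = 6) with morphine. These groups overlapped throughout. With miR-34c-5p taken out of the total, the means were 10.8% and 12.1% in nonabstinent saline and morphine males, and 10.4% and 10.3% in the abstinent ones.

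let-7g-5p, let-7f-5p and let-7i-5p carried most of the family, at 77.4% to 87.0% of its summed 5p counts in a library (median 83.0%). Among all miRNAs, let-7g-5p ranked 6 by mean CPM, let-7f-5p 7, let-7i-5p 14, let-7a-5p 23 and let-7c-5p 34. The remaining 4 members, let-7b-5p (rank 81), let-7d-5p (rank 108), let-7e-5p (rank 138) and miR-98-5p (rank 149), together held only 0.796% to 2.17%. Over the 25 libraries the mean level ran from 22489 ± 5947 CPM (SD) for let-7g-5p to 95.7 ± 28.7 CPM for miR-98-5p. Neighbours in this order were let-7f-5p at 21184 ± 3843 CPM, let-7i-5p at 12473 ± 2599 CPM, let-7a-5p at 6954 ± 2696 CPM and let-7c-5p at 3774 ± 1261 CPM. let-7b-5p stood at 565 ± 180 CPM, let-7d-5p at 254 ± 90.3 CPM and let-7e-5p at 124 ± 39.7 CPM. The means of let-7g-5p and let-7f-5p, and those of let-7e-5p and miR-98-5p, lay closer together than their spread between libraries. The 3 steps from let-7c-5p to let-7b-5p, to let-7d-5p and to let-7e-5p, and the step from let-7f-5p to let-7i-5p, held in 25 of 25 libraries each. let-7i-5p exceeded let-7a-5p in 23 of 25 and let-7a-5p exceeded let-7c-5p in 20 of 25.

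**Figure D1:**
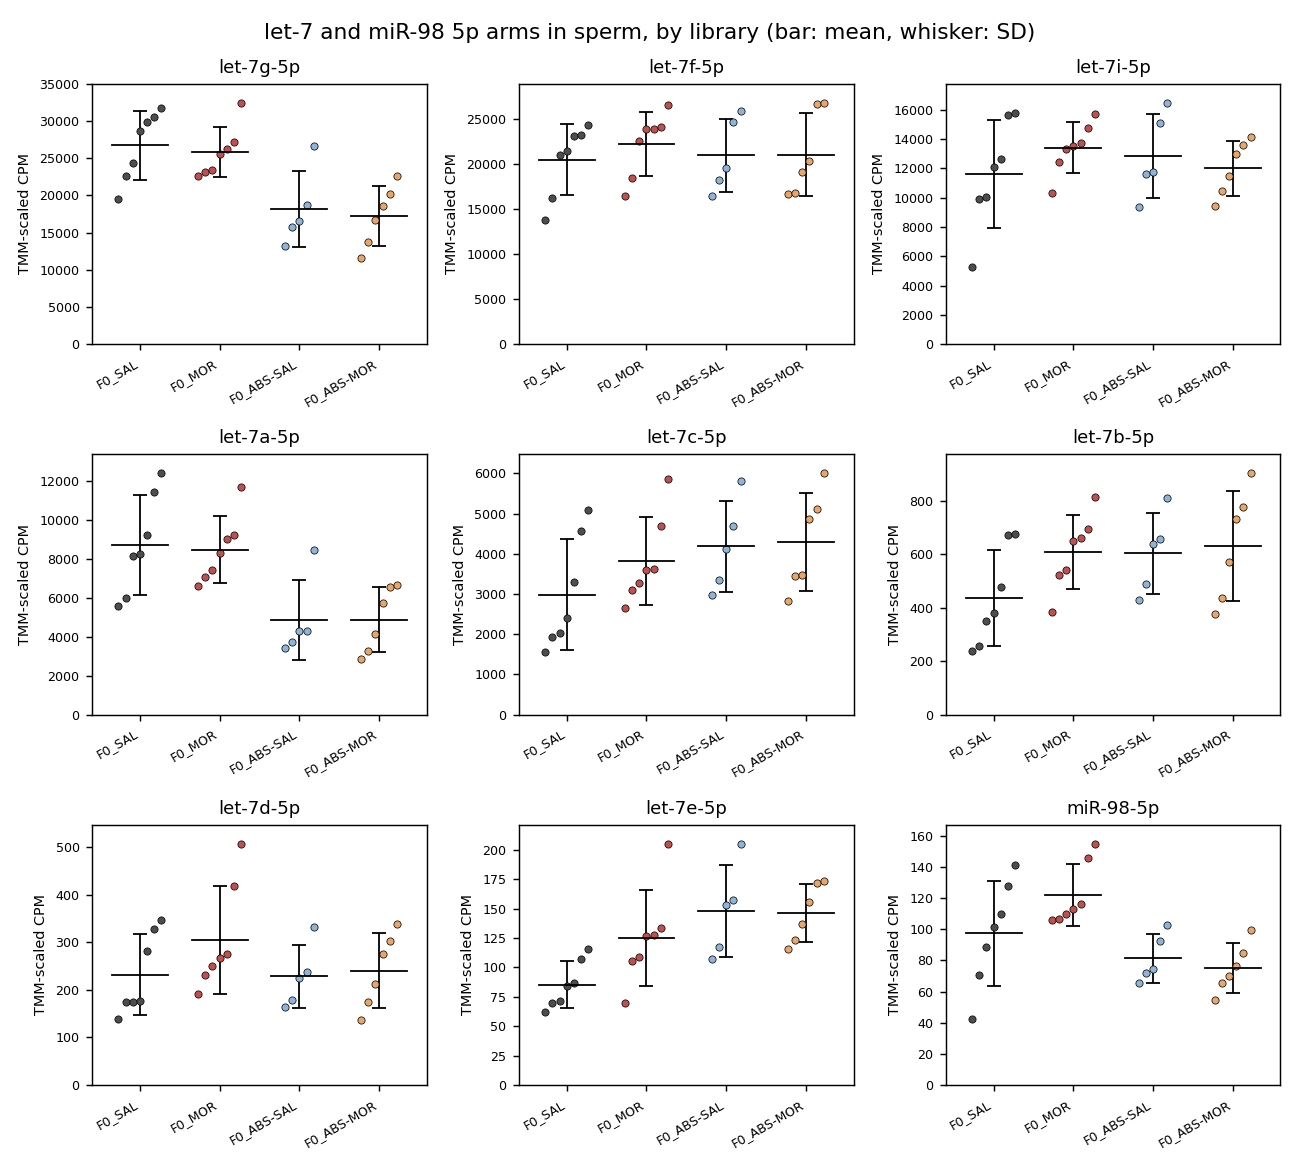
TMM-scaled CPM (y axis, linear from 0, a separate scale for each panel) of the 9 5p arms in each of the 25 libraries, by group on the x axis. Points are libraries, set out by value within a group, bars are means and whiskers are SD. let-7g-5p and let-7a-5p sit lower in the abstinent groups, let-7e-5p sits lowest in F0_SAL, and let-7f-5p covers much the same range in all groups.

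The question of the treatment comparison at the end of self-administration, F0_MOR vs. F0_SAL, was whether morphine changed sperm miRNAs. Calls required an adjusted p below 0.1 together with an absolute log2 fold change above 0.58. In this comparison 0 of 14 tested members were called by edgeR's quasi-likelihood test, beside 0% of all 317 miRNAs (0 miRNAs). At an unadjusted p under 0.05 there were 2 members and 23 miRNAs in all, and DESeq2 and limma-voom called 0 members, with 0 and 1 miRNAs in all. The positive log2 fold changes outnumbered the negative ones among the 5p arms, 7 against 2, with a median of 0.32 beside 0.06 over all miRNAs tested.

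The 2 members were let-7e-5p and let-7b-5p. let-7e-5p ranged from 62.3 to 115 CPM in F0_SAL with a median of 83.9, and from 69.4 to 205 CPM in F0_MOR with a median of 127. The highest 4 of 7 morphine libraries lay above every saline library, and the groups overlapped. Its log2 fold change was 0.56 ± 0.21 (SE), with an unadjusted p of 0.0113 and an adjusted p of 0.547 by edgeR's quasi-likelihood test. let-7b-5p ranged from 239 to 675 CPM in F0_SAL (median 379) and from 385 to 814 CPM in F0_MOR (median 648). Its log2 fold change was 0.49 ± 0.24 (SE) with an adjusted p of 0.623. At the other end, the most abundant member, let-7g-5p, had a median of 28656 CPM in F0_SAL and 25631 CPM in F0_MOR. Its log2 fold change was -0.05 ± 0.16 (SE), with a 95% interval of -0.39 to 0.29.

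After abstinence, F0_ABS-MOR vs. F0_ABS-SAL, the question was whether a difference between treatments was present at the later collection. Again 0 of 14 members were called, beside 0% of all miRNAs (0 miRNAs), and 0 members had an unadjusted p under 0.05, beside 4 miRNAs in all. DESeq2 and limma-voom called 0 members as well, and 0 miRNAs in all. The fold changes of the 5p arms stayed within a narrow band. They ran from -0.11 ± 0.23 (SE) for miR-98-5p to 0.08 ± 0.28 (SE) for let-7d-5p, with a 95% interval of -0.60 to 0.38 for the former and -0.51 to 0.66 for the latter. The median over the 9 was 0.01, beside -0.01 over all miRNAs.

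The difference between the treatment effects at the 2 collection times was tested as an interaction. It called 0 members beside 0% of all miRNAs (0 miRNAs), with 0 members and 10 miRNAs in all at an unadjusted p under 0.05, and 0 members and 0 miRNAs by DESeq2 and by limma-voom. let-7e-5p had the highest estimate among the 5p arms, at 0.57 ± 0.31 (SE), with an adjusted p of 0.953 by edgeR's quasi-likelihood test. For miR-98-5p the estimate was 0.43 ± 0.31 (SE), with the same adjusted p of 0.953.

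**Figure D2:**
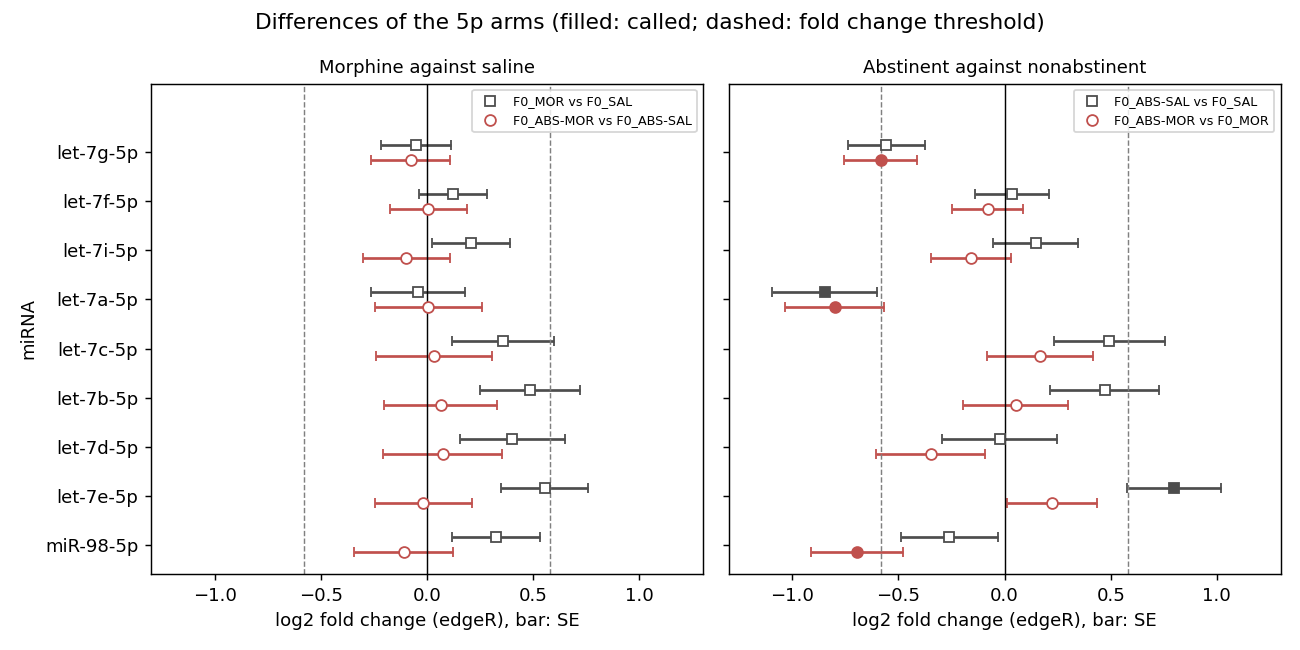
log2 fold changes from edgeR (x axis) with their SE (bars) for the 9 5p arms (y axis), morphine against saline on the left and abstinent against nonabstinent on the right. Filled symbols are calls and dashed lines mark the fold change threshold of 0.58. There is no filled symbol on the left, and on the right let-7a-5p is filled in both comparisons, let-7e-5p in the saline one, and let-7g-5p and miR-98-5p in the morphine one.

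Timepoint comparisons asked how sperm collected 90 days later differed within a treatment. They share their libraries with the treatment comparisons, so the values of a group enter more than 1 comparison. In saline males, F0_ABS-SAL vs. F0_SAL, let-7a-5p fell and let-7e-5p rose, so that members 1 base apart moved in opposite directions. That made 2 of 14 members called by edgeR's quasi-likelihood test, beside 33.1% of all 317 miRNAs (105 miRNAs). The 1 member called higher stood beside 22.4% of all miRNAs (71), and the 1 called lower beside 10.7% (34). The median log2 fold change of the 9 5p arms was 0.03, beside 0.00 over all miRNAs tested.

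rno-let-7a-5p, a 1-base neighbour of let-7c-5p, let-7e-5p and let-7f-5p, ranged from 5586 to 12396 CPM in F0_SAL, with a median of 8236. In F0_ABS-SAL its libraries E, K, L, R and Y stood at 8448, 3426, 3748, 4294 and 4301 CPM. In 4 of 5 abstinent libraries it lay below every nonabstinent saline library, and library E lay within their range. The log2 fold change was -0.85 ± 0.25 (SE) with an adjusted p of 0.0128 by edgeR's quasi-likelihood test, and -1.21 without library E. With total count alone as the scaling, it was -0.50 with an adjusted p of 0.202, under which let-7a-5p was no longer called.

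rno-let-7e-5p, processed from the hairpin beside Mir99b and Mir125a, stood at 153, 117, 158, 205 and 107 CPM in F0_ABS-SAL, in the same order of libraries. These values compare with 62.3 to 115 CPM in F0_SAL, and 4 of 5 libraries lay above all saline libraries of the earlier collection. The log2 fold change was 0.80 ± 0.22 (SE) with an adjusted p of 0.0100 by edgeR's quasi-likelihood test. It was called in 9 of 9 other settings of the fit and in 12 of 12 fits that left out 1 library, at log2 fold changes of 0.62 to 0.89 in the latter.

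let-7g-5p stood at 26596, 15749, 13255, 16561 and 18676 CPM in F0_ABS-SAL, beside 19475 to 31708 CPM in F0_SAL. Library E was again the only abstinent saline library within the range of the earlier ones. The log2 fold change of -0.56 ± 0.18 (SE), with an adjusted p of 0.0251 by edgeR's quasi-likelihood test, passed the p threshold and missed the fold threshold. Without library E it was -0.81 and was called. In CPM, 0 of the 9 5p arms separated the saline groups without overlap, beside 6.94% of all miRNAs tested.

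For the other members the test was not passed. let-7c-5p and let-7b-5p had log2 fold changes of 0.49 ± 0.26 and 0.47 ± 0.26 (SE), let-7i-5p 0.15 ± 0.20, let-7f-5p 0.03 ± 0.17, let-7d-5p -0.02 ± 0.27 and miR-98-5p -0.26 ± 0.23. For let-7f-5p the 95% interval was -0.33 to 0.40. let-7c-5p and let-7b-5p were called in 3 of 9 other settings each, with positive values in all of them. Leaving out 1 library gave 2 to 5 called members, 4 of them without library H or library P of F0_SAL and 5 without library E of F0_ABS-SAL. Those 5 include let-7a-1-3p and let-7c-2-3p, which have the same sequence and are 1 measurement under both names.

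In morphine males, F0_ABS-MOR vs. F0_MOR, let-7a-5p, let-7g-5p and miR-98-5p fell and no member rose. The 3 of 14 members called by edgeR's quasi-likelihood test stood beside 21.1% of all miRNAs (67). The 0 members called higher stood beside 11% of all miRNAs (35), and the 3 called lower beside 10.1% (32). The median of the 9 5p arms was -0.16, beside 0.00 over all miRNAs tested.

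let-7a-5p ranged from 6587 to 11719 CPM in F0_MOR, with a median of 8313, and from 2847 to 6652 CPM in F0_ABS-MOR, with a median of 4938. In 5 of 6 abstinent libraries it lay below every nonabstinent morphine library. The log2 fold change was -0.80 ± 0.23 (SE) with an adjusted p of 0.0197 by edgeR's quasi-likelihood test, and it was called in 13 of 13 fits that left out 1 library and in 7 of 9 other settings. The call was lost with total count alone, at -0.60 (adjusted p = 0.118), and with log2 total count as a covariate, at -0.57, which misses the fold threshold.

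rno-miR-98-5p, encoded beside a let-7f hairpin on the X chromosome, ranged from 106 to 155 CPM in F0_MOR (median 113) and from 54.4 to 99.7 CPM in F0_ABS-MOR (median 73.3). All 6 abstinent libraries lay below all 7 nonabstinent ones, a separation found in this comparison for 3.47% of all miRNAs tested. The log2 fold change was -0.70 ± 0.22 (SE) with an adjusted p of 0.0272 by edgeR's quasi-likelihood test. It was called in 13 of 13 fits that left out 1 library and in 7 of 9 other settings, and stood at -0.49 with total count alone and -0.56 with the covariate. In saline males the groups overlapped, at 42.6 to 141 CPM in F0_SAL and 103, 74.3, 71.6, 92.2 and 65.5 CPM in F0_ABS-SAL, all of them within the wide range of F0_SAL. As given above, the difference between these timepoint effects, which is the same contrast as the interaction, did not pass the test.

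let-7g-5p ranged from 22623 to 32447 CPM in F0_MOR and from 11574 to 22633 CPM in F0_ABS-MOR, where 5 of 6 libraries lay below all the morphine libraries of the earlier collection. Its log2 fold change of -0.58 ± 0.17 (SE), adjusted p = 0.0197 by edgeR's quasi-likelihood test, sat at the fold threshold itself. It was called in 1 of 9 other settings and in 8 of 13 fits that left out 1 library, while its sign was negative in each of them.

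The remaining members did not pass. let-7e-5p had a log2 fold change of 0.22 ± 0.21 (SE), let-7c-5p 0.17 ± 0.25, let-7b-5p 0.05 ± 0.25, let-7f-5p -0.08 ± 0.17, let-7i-5p -0.16 ± 0.19 and let-7d-5p -0.35 ± 0.26. let-7e-5p in F0_ABS-MOR covered 115 to 173 CPM, within the 69.4 to 205 CPM of F0_MOR. Under total count alone, which moved the median of all miRNAs to 0.18 in this comparison and 0.39 in the saline one, 0 members were called here and let-7b-5p, let-7c-5p and let-7e-5p were called there. With log2 total count as a covariate the called members were 0 here and 4 there.

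Shares of each member in the summed 5p counts do not depend on the scaling between libraries, since both terms come from the same library. They are given as descriptions, without a test. The let-7g-5p share was 33.7% to 42.4% in F0_SAL and 33.0%, 32.0%, 24.8%, 23.5% and 33.0% in F0_ABS-SAL, so all 5 later libraries lay below all 7 earlier ones. In the morphine males it was 29.6% to 37.6% and later 23.3% to 35.5%, with overlap. The let-7e-5p share was 0.0967% to 0.141% in F0_SAL and 0.189% to 0.294% in F0_ABS-SAL, again without overlap. These were 2 of the 9 members in saline males, while 0 of 9 shares were without overlap in morphine males or between treatments, and the measure has no counterpart over all miRNAs. In 6 of 7 F0_MOR libraries the let-7e-5p share also lay above every F0_SAL library. let-7a-5p made up 12.2% ± 2.20 (SD) of the family in F0_SAL and 11.3% ± 1.66 in F0_MOR. Its share was 7.63% ± 1.68 in F0_ABS-SAL and 7.85% ± 1.37 in F0_ABS-MOR.

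The mean let-7c-5p share was higher in each abstinent group than in either nonabstinent group, from 4.04% ± 1.26 (SD) in F0_SAL and 5.11% ± 1.29 in F0_MOR to 6.77% ± 1.25 in F0_ABS-SAL and 7.10% ± 1.40 in F0_ABS-MOR. The let-7b-5p means stood in the same order as those of let-7c-5p, at 0.597% ± 0.160, 0.816% ± 0.182, 0.981% ± 0.195 and 1.05% ± 0.269. let-7a-5p exceeded its 1-base neighbour let-7c-5p in all 14 nonabstinent libraries, in 3 of 5 F0_ABS-SAL libraries and in 3 of 6 F0_ABS-MOR libraries. Since shares of a whole sum to a constant, a lower share of let-7g-5p and let-7a-5p raises the others, and the shares give relative levels only.

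**Figure D3:**
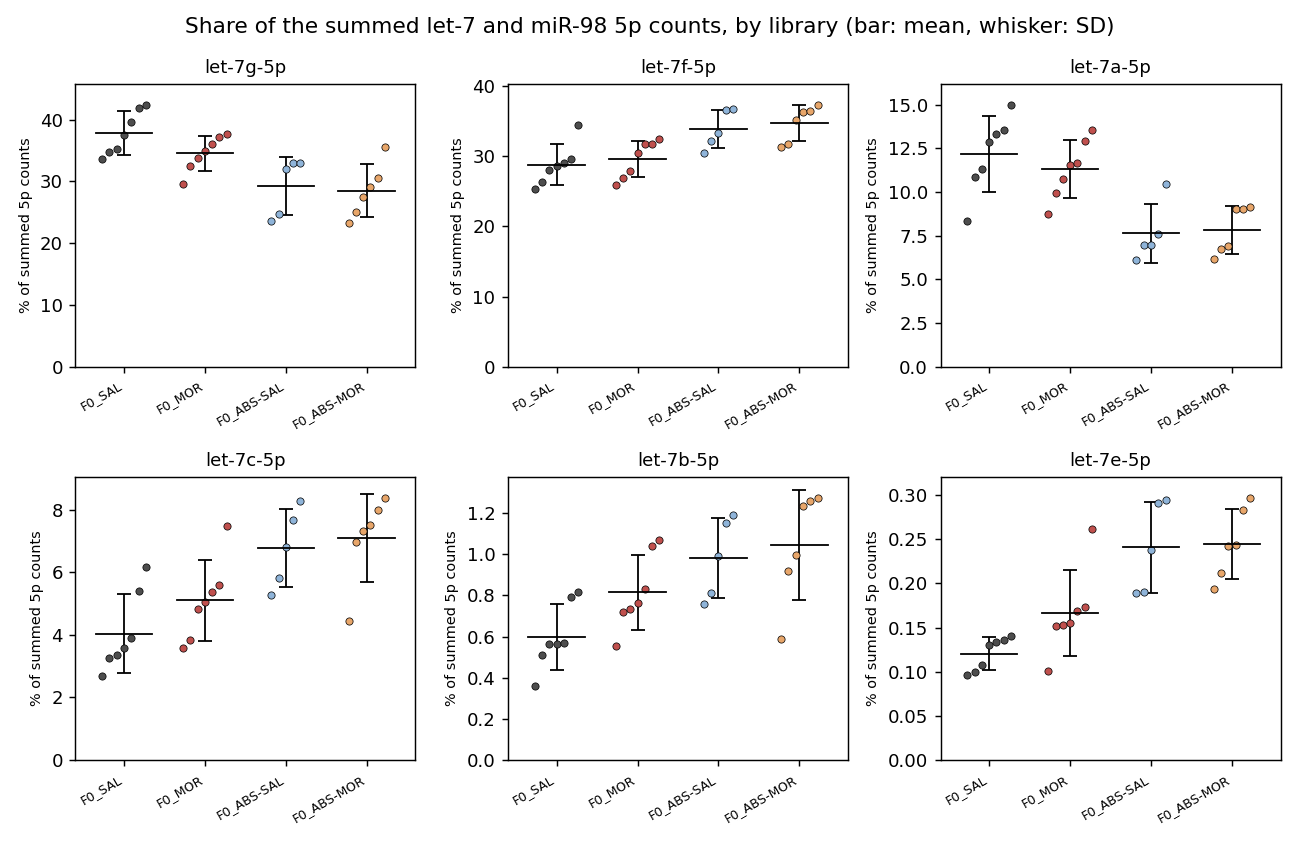
Percent of the summed let-7 and miR-98 5p counts (y axis, from 0) held by 6 members in each of the 25 libraries, by group on the x axis. Points are libraries, bars are means and whiskers are SD. The let-7g-5p share in F0_ABS-SAL lies at 23.5% to 33.0%, below the 33.7% to 42.4% of F0_SAL, and the let-7e-5p share lies at 0.189% to 0.294%, above the 0.0967% to 0.141% of F0_SAL.

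The order within 2 pairs of neighbouring members also differed between collection times. These pairs were picked after their values were seen. let-7f-5p exceeded let-7g-5p in 1 of 7 F0_SAL and 1 of 7 F0_MOR libraries, but in 3 of 5 F0_ABS-SAL and 5 of 6 F0_ABS-MOR libraries. The ratio of let-7f-5p to let-7g-5p counts was 0.769 ± 0.128 (SD) with saline and 0.866 ± 0.133 with morphine in nonabstinent males, and 1.20 ± 0.299 and 1.25 ± 0.264 after abstinence. let-7e-5p exceeded miR-98-5p in 2 of 7 F0_SAL and 4 of 7 F0_MOR libraries and in all 5 F0_ABS-SAL and all 6 F0_ABS-MOR libraries. The ratio of their counts was 0.951 ± 0.291 (SD) with saline and 1.02 ± 0.249 with morphine in nonabstinent males, and 1.82 ± 0.357 and 1.98 ± 0.338 after abstinence. Its abstinent libraries (1.49 to 2.47) all lay above its nonabstinent ones (0.508 to 1.46). The margin was narrow and rested on few counts, 155 over 106 in F0_SAL library O and 290 over 194 in F0_ABS-SAL library E. At these counts the order of libraries O and E is uncertain. Separation was not counted over all pairs of members. Ratios of let-7f-5p to let-7g-5p, of let-7f-5p to let-7a-5p and of let-7i-5p to let-7g-5p overlapped between collection times.

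**Figure D4:**
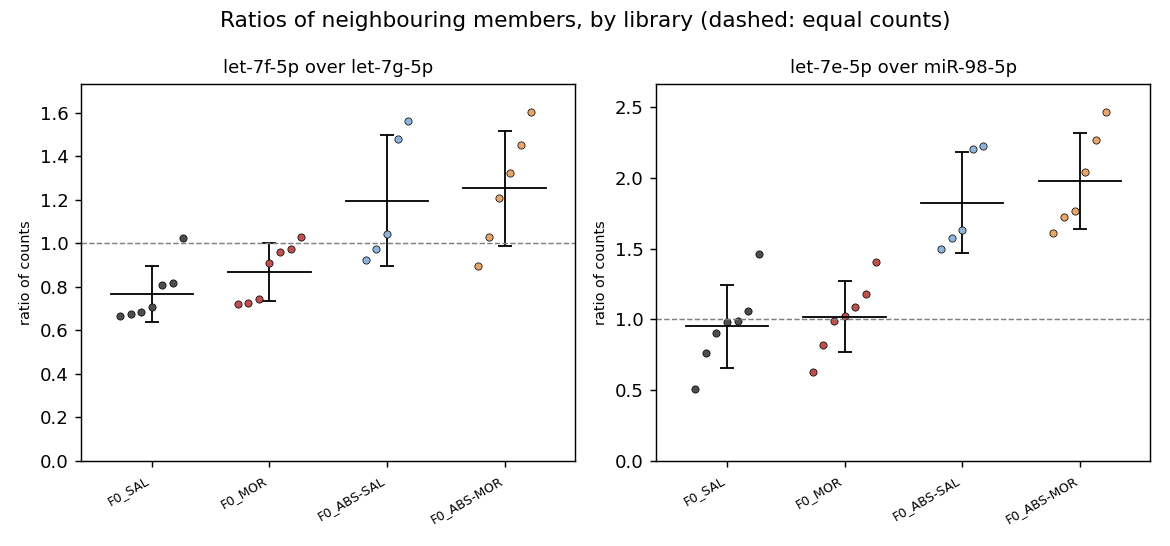
Ratio of let-7f-5p to let-7g-5p counts (left) and of let-7e-5p to miR-98-5p counts (right) in each of the 25 libraries (y axes, from 0), by group on the x axis, with the mean as a bar, the SD as a whisker and a dashed line at equal counts. The let-7e-5p ratio lies at 0.508 to 1.46 in nonabstinent libraries and at 1.49 to 2.47 in abstinent ones.

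Members varied together to different degrees from library to library. With the group means removed, Spearman's rho over 25 libraries was 0.95 for let-7b-5p with let-7c-5p, 0.89 for let-7b-5p with let-7e-5p, 0.88 for let-7f-5p with let-7i-5p and 0.80 for let-7g-5p with let-7a-5p. It was 0.21 for let-7g-5p with let-7c-5p, 0.16 for let-7g-5p with miR-98-5p and 0.10 for let-7a-5p with miR-98-5p. These values share each library's scaling and depth, and similar sequences share reads, so they are descriptions only. Of the miRNAs outside the family, those most like the mean profile of its 5p arms with group means removed were miR-320-3p (rho 0.83), miR-222-3p (rho 0.75) and miR-125b-1-3p (rho 0.74). As measured, they were miR-200c-3p (rho 0.78), miR-185-5p (rho 0.75) and miR-423-5p (rho 0.69), all over 25 libraries.

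Over all libraries, the highest level was 1.94 times the lowest for let-7f-5p, the narrowest range, and 4.35 times for let-7a-5p, the widest of the 9. These ranges include differences between groups. Within each group, some other member had a lower coefficient of variation than let-7f-5p. let-7a-5p had the highest only in the abstinent groups. Within groups, the coefficient of variation of let-7c-5p was 46.5% in F0_SAL and 28.6% in F0_MOR, and that of miR-98-5p was 34.6% in F0_SAL and 16.4% in F0_MOR. For let-7a-5p it was 42.3% in F0_ABS-SAL, where library E stood apart.

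The 3p arms were lower than their 5p partners in pooled counts for each of the 9, and least so for let-7d. let-7d-3p reached 2448 counts over all libraries beside 11677 for let-7d-5p, a pooled ratio of 4.77, which was the lowest of the 9 arm pairs. Its level was 52.6 ± 19.4 CPM (SD) with saline and 64.8 ± 11.9 CPM with morphine in nonabstinent males, and 46.0 ± 8.94 and 47.5 ± 13.6 CPM after abstinence. At the other extreme, let-7g-3p had 3 counts in all beside 1024600 for let-7g-5p and was at 0 in 24 libraries. let-7i-3p had 41 counts beside 582899. let-7a-1-3p and let-7c-2-3p have the same mature sequence, and their counts were equal in 23 of 25 libraries and at most 2 counts apart, so they are 1 measurement listed under both names. Each stood at a median of 289.5 CPM over all libraries. let-7f-2-3p stood at a median of 20.5 CPM and let-7c-1-3p at 2.86 CPM. With all libraries kept, none of the 5 tested 3p arms was called in any comparison by the main test. let-7d-3p was called for F0_ABS-MOR vs. F0_MOR without library Q of F0_ABS-MOR. Of the 7 that did not pass the filter, miR-98-3p and let-7b-3p had medians of 1.78 and 1.88 CPM, let-7i-3p had a median of 0.639 CPM, and let-7f-1-3p, let-7e-3p, let-7a-2-3p and let-7g-3p had a median of 0. let-7i-3p was at 0 in 6 of 7 F0_SAL and 6 of 7 F0_MOR libraries, and had 2 to 6 counts in every abstinent library. The abstinent libraries were deeper, with median totals of 2334377 (F0_ABS-SAL) and 2134169 (F0_ABS-MOR) beside 1701012 (F0_SAL) and 1428308 (F0_MOR). Because the authors set a minimum number of reads of 2, a listed 0 need not mean that no read was present. No upper limit is given for these arms.

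The miRNAs encoded beside let-7 hairpins are miR-99a-5p, miR-100-5p and, at a greater distance, miR-125b-5p on the clusters with let-7c and let-7a, and miR-99b-5p and miR-125a-5p on the cluster with let-7e. They were followed as a list of 5. 3 of 5 rose in saline males and 3 of 5 in morphine males at the later collection, beside 22.4% and 11% of all miRNAs called higher in those comparisons, none fell, and none was called between treatments or in the interaction. miR-100-5p ranged from 572 to 1546 CPM in F0_SAL and from 1457 to 3572 CPM in F0_ABS-SAL, with a log2 fold change of 1.47 ± 0.27 (SE) and an adjusted p of 0.000353 by edgeR's quasi-likelihood test. In morphine males it was 0.70 ± 0.26 (SE), with an adjusted p of 0.0585. miR-99a-5p rose by 0.72 ± 0.23 (SE) in saline and 0.85 ± 0.22 in morphine males, and miR-125b-5p by 0.93 ± 0.27 and 0.64 ± 0.26, on the log2 scale. The call of miR-125b-5p in morphine males was lost without F0_MOR library A, without F0_MOR library N or without F0_ABS-MOR library X, at log2 fold changes of 0.52 to 0.59. let-7a-5p, of which 1 hairpin lies beside Mir100, fell in the comparisons in which miR-100-5p rose, though its counts are not tied to that hairpin. miR-99b-5p stood at 863 ± 133 CPM (SD) in F0_SAL and 905 ± 169 in F0_ABS-SAL, with log2 fold changes of 0.07 ± 0.17 (SE) in saline and -0.15 ± 0.16 in morphine males, and miR-125a-5p at 186 ± 113 and 247 ± 97.7 CPM. let-7e-5p, of the same cluster, rose in saline males and did not pass the test in morphine males.

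Markers of other cells moved with collection time beside these differences. The counts of markers that rose stand beside 22.4% of all miRNAs called higher in saline males and 11% in morphine males. The counts of markers that fell stand beside 10.7% of all miRNAs called lower in saline males and 10.1% in morphine males. The endothelial miRNAs, both arms of miR-126a, were summed at 546 to 783 CPM in F0_SAL and 583 to 732 CPM in F0_MOR, and at 708 to 2821 CPM in F0_ABS-SAL and 1036 to 1457 CPM in F0_ABS-MOR, and 2 of 2 rose in each timepoint comparison. Of 4 miRNAs of smooth or striated muscle, 3 rose in saline and 1 in morphine males. Library R of F0_ABS-SAL stood apart with a sum of 81474 CPM for these 4, beside 13600 to 16712 CPM in F0_SAL. Without library R, let-7a-5p had a log2 fold change of -0.83 and let-7e-5p of 0.62, and both remained called, while the calls over all miRNAs fell from 105 to 65. Of 6 epithelial miRNAs of the epididymis, 4 rose in saline males and 2 in morphine males. Their sum was 6416 to 10606 CPM with saline and 7373 to 11125 CPM with morphine in nonabstinent males, and 8536 to 18840 and 8600 to 17040 CPM after abstinence.

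Leukocyte miRNAs, 6 in all, were summed at 1153 to 2249 CPM with saline and 1601 to 2501 CPM with morphine in nonabstinent males, and at 1939 to 2698 and 2001 to 3055 CPM after abstinence, and 1 rose in saline males and 1 rose and 1 fell in morphine males. The 3 erythroid miRNAs found all fell in morphine males, from 948 to 2372 CPM in F0_MOR to 308 to 1291 CPM in F0_ABS-MOR, and 0 were called in saline males (929 to 2741 CPM in F0_SAL and 654 to 1256 in F0_ABS-SAL). Of the 8 male germ cell miRNAs, 3 fell in saline males and 1 in morphine males, and none rose. Their sum was 392453 to 730550 CPM in F0_SAL and 272269 to 386675 CPM in F0_ABS-SAL, without overlap. In morphine males it was 316521 to 500044 CPM in F0_MOR and 177869 to 428602 CPM in F0_ABS-MOR, with overlap. Most of this sum was miR-34c-5p, which alone stood at 362589 to 690362 CPM in F0_SAL and 247998 to 359868 CPM in F0_ABS-SAL. Between the saline groups, 6.94% of all miRNAs tested were without overlap. No marker of any list was called between treatments, and no marker found was at 0 throughout a group. Library E, whose let-7a-5p and let-7g-5p lay within the range of F0_SAL, had the lowest endothelial sum of the abstinent saline libraries (708 CPM), the highest leukocyte sum (2698 CPM) and the second highest epithelial sum (11793 CPM). Its male germ cell sum of 275022 CPM was the second lowest of them and, like all of theirs, lay below every F0_SAL library. The part of these markers in the let-7 differences was not tested, and in bulk sperm RNA fewer cells of a type and less RNA per cell cannot be told apart.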

How the data were processed

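The authors prepared smRNA libraries with the NEBNext kit, used forward reads, and with sRNAbench trimmed adaptors, aligned reads to rat genome Rnor_6.0 (rn6 per the submitters' processing notes) and annotated them to miRBase. The deposited counts are raw reads per mature miRNA, 1 column per library, with no value between 0 and 2. Columns carry a letter, REG or TO, and SAL or MOR. The sources used here do not expand REG and TO. They were taken as nonabstinent and abstinent because the column numbers (7, 7, 5 and 6) equal the sizes of those groups. In alphabetical order the column letters also follow the groups of the samples in the order of their labels. Letters were not matched to the labels' replicate numbers. The labels call the samples biological replicates. All 300 pairs of libraries differed beyond sampling noise (chi-square per degree of freedom at least 35.1). Totals ranged from 1032386 to 3203211.

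In R 4.3.3, edgeR 4.0.16 was used with TMM factors, its default low count filter and its quasi-likelihood test, with the 4 groups in 1 model over 317 miRNAs and Benjamini–Hochberg adjustment. SE is the log2 fold change divided by the square root of F, an approximation. The interaction is the morphine effect in nonabstinent minus that in abstinent males. The test was run on simulated counts with changes larger than the main log2 fold change of any member. That check does not show how often changes of the sizes reported here are found. All members were named, with 5 cluster partners, the 3 most alike miRNAs by Spearman correlation and miRNAs with the same seed. Members and lists were chosen with earlier results of these data known. Alternatives were DESeq2 1.42.0 (which the authors used), limma-voom (limma 3.58.1), other scalings, filters, thresholds and models, and each library left out. RefSeq held 20 of the 21 member sequences and 520 of the 562 names. Its GRCr8 coordinates were not used beyond neighbourhood. The ncRNA counts were not analysed here.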

Additional observations from a re-analysis of the deposited data

Results flagged for a closer look

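Of 40 checks for a library that stands apart within a group of 5 to 7, 2 found one, and chance gives about 1 in 20. The log2 CPM of let-7i-5p in library O of F0_SAL was 12.36, the lowest of its group, with the next library at 13.27. Without that library the log2 fold change of let-7i-5p for F0_ABS-SAL vs. F0_SAL was -0.011 in place of 0.15, and neither was called. The log2 CPM of let-7a-5p in library E of F0_ABS-SAL was 13.04, the highest of its group, with the next library at 12.07. Without it the log2 fold change of let-7a-5p for F0_ABS-SAL vs. F0_SAL was -1.21, with an adjusted p of 0.000878 by edgeR's quasi-likelihood test.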

How the results depend on the processing

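The paper describes no pairing of males between groups, whose sizes differed, and each male was euthanized for sperm collection. The labels' replicate numbers were therefore not taken to mark pairs. No paired analysis was possible in any case, because the columns carry letters in place of the replicate numbers of the labels. In the treatment comparisons and the interaction 0 members were called under every setting run. Called members for F0_ABS-SAL vs. F0_SAL numbered 4 with the total without miR-34c-5p and 4 with log2 total count as a covariate, and 2 to 5 when 1 library was left out. The 5 include let-7a-1-3p and let-7c-2-3p, which are 1 measurement under both names. For F0_ABS-MOR vs. F0_MOR there were 0 with total count alone and 0 with the covariate. The family's share of counts became 10.8%, 12.1%, 10.4% and 10.3% in F0_SAL, F0_MOR, F0_ABS-SAL and F0_ABS-MOR once miR-34c-5p was left out of the total.

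Signs changed only for log2 fold changes that did not pass the test. With limma-voom, miR-98-5p was 0.023 for F0_ABS-MOR vs. F0_ABS-SAL and let-7f-5p -0.065 for F0_ABS-SAL vs. F0_SAL. With total count alone, let-7g-5p was 0.13 for F0_MOR vs. F0_SAL. For F0_ABS-SAL vs. F0_SAL, let-7d-5p was 0.31 and miR-98-5p 0.090. For F0_ABS-MOR vs. F0_MOR, let-7f-5p was 0.13, let-7i-5p 0.051 and miR-99b-5p 0.055. With the total without miR-34c-5p, let-7g-5p was 0.037 for F0_MOR vs. F0_SAL, let-7d-5p 0.12 for F0_ABS-SAL vs. F0_SAL and let-7f-5p 0.0051 for F0_ABS-MOR vs. F0_MOR. let-7d-5p for F0_ABS-SAL vs. F0_SAL was 0.0015 with no filter, 0.055 with at least 10 counts in every library and 0.19 with the covariate. With the covariate it was -0.058 for F0_ABS-MOR vs. F0_ABS-SAL, while let-7f-5p was 0.044 and let-7i-5p 0.050 for F0_ABS-MOR vs. F0_MOR.

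Leaving out 1 library gave, for F0_ABS-SAL vs. F0_SAL, let-7f-5p from -0.11 to 0.11, let-7i-5p from -0.011 to 0.24, let-7d-5p from -0.27 to 0.080 and miR-99b-5p from -0.043 to 0.16. It gave let-7b-5p from -0.058 to 0.17 for F0_ABS-MOR vs. F0_MOR. For F0_ABS-MOR vs. F0_ABS-SAL it gave let-7d-5p from -0.035 to 0.29 and miR-98-5p from -0.20 to 0.024. The cause of these changes was not tested. miR-98-5p and let-7e-5p had the fewest counts of the 5p arms on average, at 106 to 320 and 93 to 480 in a library. Group sizes of 5 to 7 limit all differences.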
